A study of Mus musculus with 9 samples.

Results

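PPARγ binding was described here at the genes of 4 transcription factors that act on the D-box, a DNA element of clock output genes. Dbp, Tef and Hlf encode activators of the PAR bZIP family and Nfil3 encodes a repressor that binds the same element. Members were the rows of the count table whose midpoint lies in a window around each gene, at 45.69 to 45.725 Mb of chromosome 7 (Dbp), 81.78 to 81.85 Mb of chromosome 15 (Tef), 90.31 to 90.42 Mb of chromosome 11 (Hlf) and 52.94 to 53.01 Mb of chromosome 13 (Nfil3) of mm10. This gave 39 of 66066 peaks, of which 7 were in the Dbp window, 11 in the Tef window, 16 in the Hlf window and 5 in the Nfil3 window. The windows also hold neighbouring genes, so a peak is named below by where it lies. The rule used position and no read count.

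Chromatin came from interscapular brown adipose tissue (iBAT) of C57BL/6J wild type mice of 10 weeks old, male according to the methods of the study, kept on chow at mild cold in a light-dark cycle. Each of 8 groups, from ZT0 to ZT21 at every 3 h of Zeitgeber time (ZT), was 1 ChIP library of tissue pooled from 8 mice per the labels, while the section on animals of the study gives fewer mice per time point. ZT0 is lights on and the mice carried no transgene or treatment. With 1 library per time point, the spread between mice or preparations could not be estimated, and the tests rest on how the 8 values are ordered in time. In pooled tissue, a change in the mix of cell types and a change in binding per cell cannot be told apart.

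The nuclear receptor PPARγ is the leading regulator of adipocyte genes and sits on DNA together with the retinoid X receptor, at a pair of half-sites spaced by 1 base (DR1). In the clock, CLOCK and BMAL1 act on E-boxes, and Dbp is a well-known target of this pair. DBP, TEF and HLF drive D-box genes rhythmically, and NFIL3 represses them in the opposite phase. The strongest peaks nearest to genes of brown fat were among the strongest of the table, at rank 19 for Ucp1, the uncoupling protein, 25 for Cidea, a lipid droplet protein, 77 for Fabp4, a fatty acid carrier, and 117 for Adipoq, an adipokine. Reads in peaks numbered 29572225 to 34264812 per library, and counts were scaled by edgeR's TMM factors, which ran from 0.959 at ZT6 to 1.04 at ZT18. Scaled values are called normalized counts. Against division by library totals, this raises a ZT6 to ZT18 ratio by 0.11 on the log2 scale. The strongest 10% of peaks took 44.2% to 48.0% of the reads, lowest at ZT15 and highest at ZT6, and the part of this in the results was not tested, apart from the loess values given with the counts.

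The sequences below are from the reference genome GRCm38.p6, the build of the table, and carry the elements named in the results. They are written 5′ to 3′ on the strand of the gene for E-box (CACGTG) and D-box (TTATGTAA or TTACGTAA) windows, and on the strand of the element for DR1 windows, with the element in capitals. Windows that overlap an annotated exon were left out. The gene on each line is that of the window. Printed DR1s have 2 mismatches among 12 fixed bases, or 1 at chr15:81829079-81829171. Those in the strongest Tef window peak and past the end of Dbp lie 1311 and 1208 bases from the centre of peaks of 2775 and 2734 bases. Of all peaks of like length, 46.4% and 46.7% hold a DR1 with up to 2 mismatches. For the Hlf start-site peak this was 49.6%. Whether PPARγ sits at the printed letters was not tested.
Dbp E-box, chr7:45707800-45707855, in the start-site peak: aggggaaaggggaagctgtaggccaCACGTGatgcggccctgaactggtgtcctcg
Tef E-box, chr15:81803066-81803121, in the distal start-site peak: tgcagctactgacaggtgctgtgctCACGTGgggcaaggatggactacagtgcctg
Tef D-box, chr15:81803259-81803316, in the same peak: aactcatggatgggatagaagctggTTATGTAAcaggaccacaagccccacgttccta
Tef E-box, chr15:81810918-81810973, in the internal start-site peak: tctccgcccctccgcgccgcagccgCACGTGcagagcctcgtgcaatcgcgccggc
Nfil3 E-box, chr13:52981709-52981764, upstream of the start: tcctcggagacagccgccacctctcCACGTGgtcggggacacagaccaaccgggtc
Nfil3 D-box, chr13:52980680-52980737, downstream of the start: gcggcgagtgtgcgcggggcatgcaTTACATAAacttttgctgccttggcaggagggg
Tef DR1, chr15:81829079-81829171, reverse strand, in a peak downstream of the gene: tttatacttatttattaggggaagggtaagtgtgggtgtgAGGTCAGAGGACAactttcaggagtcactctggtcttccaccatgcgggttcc
Tef DR1, chr15:81840896-81840988, reverse strand, in the strongest peak of the Tef window: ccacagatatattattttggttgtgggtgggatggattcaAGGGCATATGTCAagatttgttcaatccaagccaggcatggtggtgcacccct
Hlf DR1, chr11:90389967-90390059, reverse strand, in the start-site peak: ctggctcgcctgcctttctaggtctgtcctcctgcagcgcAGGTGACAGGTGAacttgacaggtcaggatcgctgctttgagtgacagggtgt
Nfil3 DR1, chr13:52977225-52977317, forward strand, in the start-site peak: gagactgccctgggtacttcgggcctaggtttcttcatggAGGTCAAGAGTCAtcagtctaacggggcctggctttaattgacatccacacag
Dbp DR1, chr7:45712971-45713063, reverse strand, in the peak past the end of the gene: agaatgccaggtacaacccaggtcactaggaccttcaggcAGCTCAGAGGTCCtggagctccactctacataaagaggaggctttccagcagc

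Across the 4 windows PPARγ binding was mostly higher in the second part of the light phase and lower at ZT18 or ZT0. Of 39 peaks, 21 (53.8%) were called oscillating by JTK-cycle (adjusted P under 0.05), where 11.6% of all peaks were called. Members of a window lie close together and all share libraries, so this and later counts are not of independent observations. A 24-h cosine fitted with edgeR's quasi-likelihood method, with Benjamini-Hochberg adjustment over 66066 peaks, called 27 members (69.2%) and 13.4% of all peaks. Both tests called 20 members, JTK-cycle alone called 1, the cosine alone called 7, and 11 were called by neither. After a further Benjamini-Hochberg adjustment of the exact JTK P values, 0 of the 66066 peaks passed (smallest q 0.0968), so the JTK calls hold per peak only. By gene, JTK-cycle and the cosine called 4 and 3 of 7 peaks in the Dbp window, 5 and 10 of 11 in the Tef window, 10 and 12 of 16 in the Hlf window, and 2 and 2 of 5 in the Nfil3 window.

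**Figure D1:**
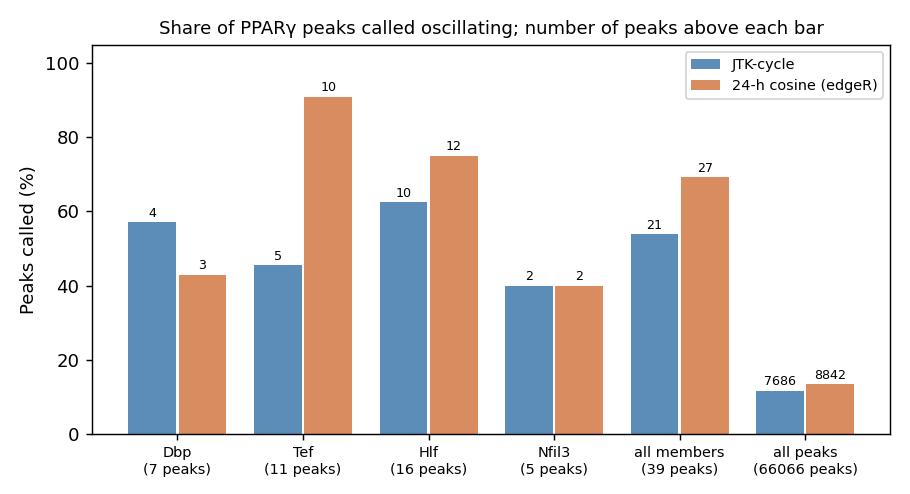
Share of PPARγ peaks called oscillating by JTK-cycle (blue bars) and by the edgeR cosine (orange bars), in percent, per gene window, for the 39 members and for all 66066 peaks, with the number of called peaks above each bar. The 39 members stand at 53.8% and 69.2%, and all peaks at 11.6% and 13.4%.

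Members are stronger than most peaks, with a median mean count of 868 against 224, and strong peaks were called more often. Among peaks that averaged 500 or more normalized counts, 57.7% of 26 members and 16.1% of 17498 peaks were called by JTK-cycle, and 80.8% and 20.2% by the cosine. The median fitted amplitude was 0.28 on the log2 scale for members and 0.17 for all peaks, and 32 of 39 members were above the latter. Of 27 members called by the cosine, 24 had their fitted maximum from ZT6 to before ZT12, a span that held 25.2% of all called peaks. Among called peaks that averaged 500 or more normalized counts the numbers were 20 of 21 members and 36.0% of 3542 peaks. Over called peaks of any strength, with counts divided by library totals, the numbers were 21 of 24 and 14.5%, and with cyclic loess, which removes trends with peak strength, 20 of 24 and 22.5%. Cyclic loess lowered the JTK-cycle count to 13 members (33.3%, with 11.0% of all peaks), and without the ZT18 library the cosine called 12 members (30.8%, with 4.64% of all peaks).

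**Figure D2:**
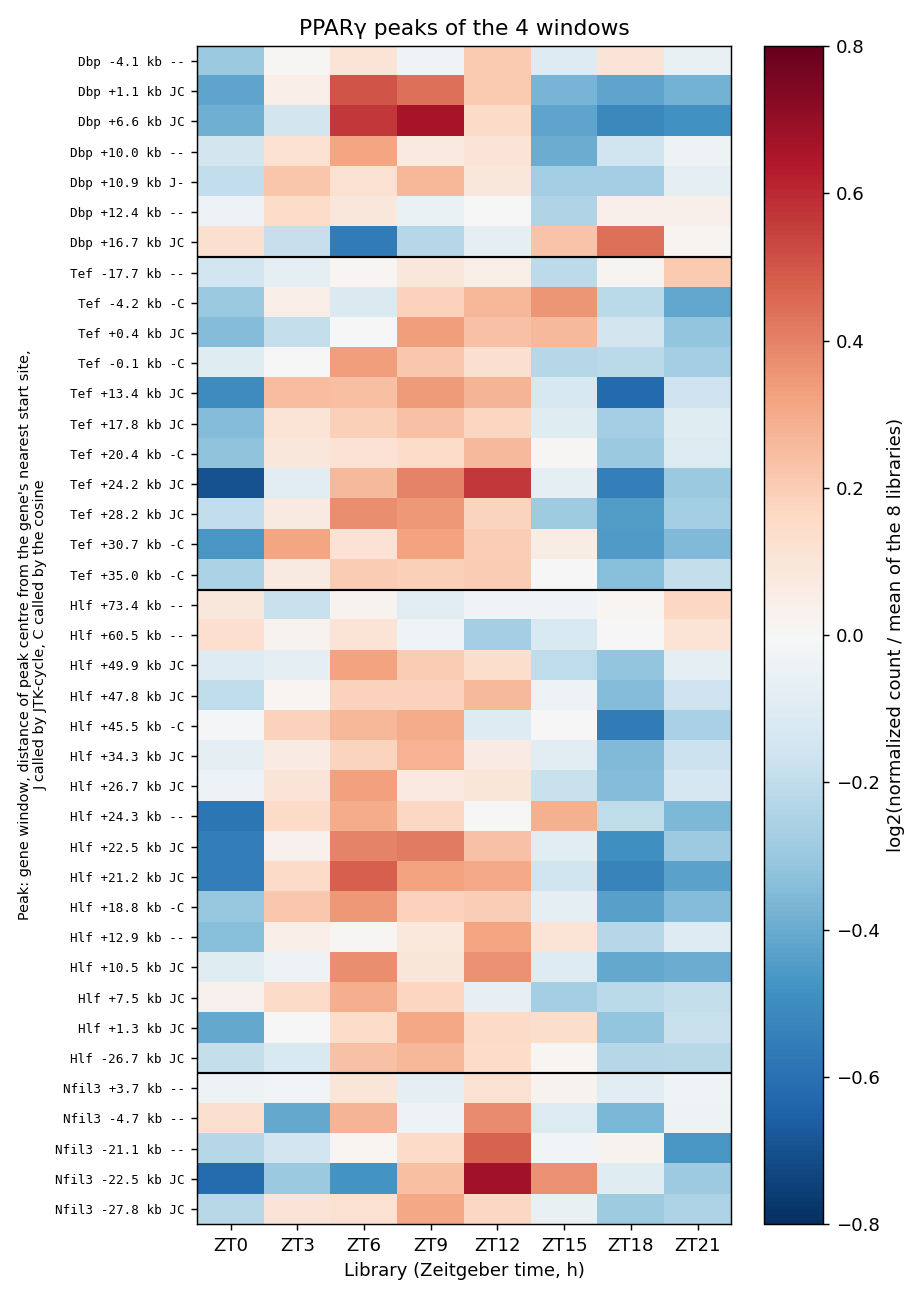
Normalized count of each of the 39 peaks (rows) in the 8 libraries (columns), as log2 of the value over the peak's own mean. Row labels give the window, the distance of the peak centre from the gene's nearest start site in kb and the calls (J for JTK-cycle, C for the cosine). Red cells gather at ZT6, ZT9 and ZT12, and the Dbp window row at +16.7 kb is the reverse.

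At Dbp, binding over the start site was almost doubled in the light phase. The peak chr7:45703881-45708861 spans the start of Dbp and is centred in intron 1. From ZT0 to ZT21 in steps of 3 h its normalized counts were 2909, 4028, 5515, 5270, 4509, 3005, 2900 and 2994. Values at ZT6 and ZT9 were the highest, ZT15 to ZT0 stayed near one level, and the highest was 1.9 times the lowest. The 95% Wilson intervals of counting error were 5373 to 5660 at ZT6 and 2794 to 3010 at ZT18 and do not overlap. The fitted maximum was at ZT7.78 (95% interval 6.92 to 8.64 h), the amplitude was 0.50 ± 0.05 (log2, SE), and the adjusted P values were 0.00595 in exact JTK-cycle and 0.000342 in the edgeR cosine. This peak held 2 E-boxes, at 2468 and 2581 bases downstream of the start, of which the latter is printed above. Of all peaks within 10% of its length, 55.1% hold an E-box.

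The neighbouring peak chr7:45710443-45713176 lies just past the 3′ end of Dbp, over the last exon of Sphk2, a sphingosine kinase that is transcribed towards Dbp. Its values in the same order were 496, 588, 963, 1027, 725, 487, 456 and 464. Signal at ZT9 was 2.25 times that at ZT18, and the fitted amplitude, 0.60 ± 0.07, was the largest of the 39 members (cosine adjusted P = 0.00089 by edgeR, maximum at ZT7.94 (95% interval 6.94 to 8.94 h)). It held 2 E-boxes and 2 DR1 matches with 2 mismatches among 12 fixed bases, 1 of which is printed above. Of all peaks of like length, 35.1% hold an E-box and 46.7% a DR1. Further into Sphk2, chr7:45715950-45716405 was called by exact JTK-cycle (adjusted P = 0.026) and not by the edgeR cosine (adjusted P = 0.15), with values of 115, 154, 144, 158, 141, 110, 109 and 125. Its counts are low and the highest value is 1.45 times the lowest.

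At the far end of the Dbp window the order was turned around. In chr7:45721375-45722424, over the first exon of Fam83e, normalized counts were 345, 277, 214, 269, 300, 368, 428 and 320. Here ZT6 was the lowest and ZT18 the highest library, the reverse of the Dbp start-site peak, and Pearson's r between the log2 values of both peaks was -0.88 over the 8 libraries. Exact JTK-cycle gave an adjusted P of 0.000744, the smallest that 8 points allow, and the edgeR cosine an adjusted P of 0.0202 with a maximum at ZT18.3 (95% interval 16.5 to 20 h). The remaining 3 peaks, in Car11 and around the Sphk2 and Rpl18 starts, had ratios of the highest to the lowest value of 1.31 to 1.64 and passed neither test.

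At Tef, both start sites were bound, and the strongest binding of the window lay downstream of the gene, nearer to the start of Tob2. Tef has a distal and an internal start in curated RefSeq transcripts. Over the internal start, chr15:81809432-81813276, values from ZT0 to ZT21 were 3380, 3610, 4556, 4189, 3950, 3074, 3109 and 2983. ZT6 was the highest and ZT15 to ZT21 were the lowest (edgeR cosine adjusted P = 0.00338, maximum at ZT7.4 (95% interval 6.15 to 8.65 h)), while exact JTK-cycle gave an adjusted P of 0.0826, just above the threshold. The distal start-site peak, chr15:81801216-81804937, also spans the start of the antisense gene Gm17597. It had values of 886, 987, 1130, 1424, 1326, 1352, 1018 and 906, highest from ZT9 to ZT15, with its fitted maximum later, at ZT11.2 (95% interval 10 to 12.4 h). It was called by exact JTK-cycle (adjusted P = 0.026) and by the edgeR cosine (adjusted P = 0.00247), with the former call lost under cyclic loess (adjusted P = 0.0826).

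These 2 start-site peaks of Tef differ in the boxes they carry. The distal one held 2 E-boxes and 2 D-boxes, the element its own protein binds, and the internal one 3 E-boxes, no D-box and a DR1 with 1 mismatch. Of all peaks of like length, 44.5% hold an E-box and 19.3% a D-box in the former case. In the latter, 45.5% hold an E-box and 57.7% a DR1 with up to 2 mismatches. A DR1 with at most 1 mismatch was present in 4.99% of all peaks of any length and in 2 members (5.13%). The ratio of distal to internal counts within each library ran from 0.248 at ZT6 to 0.44 at ZT15, but this order in time did not pass exact JTK-cycle (adjusted P = 0.467). The time of the maximum is therefore not shown to differ between both starts by that test, although the intervals of the fitted maxima do not overlap.

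Downstream of Tef, 6 peaks fill the space up to Tob2, an antiproliferative gene on the other strand. For chr15:81833104-81838054 and the peaks beyond it, the nearest start site is that of Tob2. The strongest of the Tef window, chr15:81838244-81841018, ranked 114 among all peaks. Its centre is 18695 bases from the Tob2 start and 28.2 kb from the nearest Tef start. Its normalized counts were 5720, 6870, 8490, 8331, 7400, 5384, 4805 and 5393. ZT6 and ZT9 were high and ZT18 was lowest, with a ratio of 1.77, a maximum at ZT7.37 (95% interval 6.54 to 8.2 h) and adjusted P values of 0.026 (exact JTK-cycle) and 0.000281 (edgeR cosine). The adjoining chr15:81833104-81838054 had values of 2234, 3408, 4347, 4776, 5359, 3444, 2483 and 2950. It was highest at ZT12 and 2.4 times its value at ZT0, the widest range of the Tef window, and its amplitude was 0.54 ± 0.07 (edgeR cosine adjusted P = 0.00134).

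The other 4 downstream peaks followed the same times with smaller ranges. Values were 1054, 1450, 1534, 1578, 1510, 1254, 1109 and 1258 in chr15:81828321-81830149, called by both tests. They were 761, 1014, 1030, 1055, 1142, 957, 773 and 883 in chr15:81830913-81832687. In chr15:81841366-81842844 they were 501, 862, 752, 864, 794, 721, 507 and 541. Highest values of these 3 were at ZT9 or ZT12 and lowest values at ZT0. In chr15:81844196-81848714, which reaches into the 3′ end of Tob2, values were 3310, 4143, 4525, 4491, 4542, 3945, 3118 and 3446, lowest at ZT18. The latter 3 were called by the edgeR cosine alone (adjusted P = 0.0435, 0.0155 and 0.00467).

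Upstream of and within Tef, 3 peaks remain. In the last exon of Tef, chr15:81824268-81825311 was weak, with values of 145, 243, 242, 259, 247, 187, 133 and 183, and called by both tests. The intergenic peak chr15:81795773-81801123 upstream of the distal start had 1196, 1518, 1351, 1665, 1765, 1874, 1263 and 1098, highest at ZT15 and with a fitted maximum at ZT11.1 (95% interval 9.25 to 12.9 h). It was called by the edgeR cosine (adjusted P = 0.0238) and not by exact JTK-cycle (adjusted P = 0.212). In an intron of Zc3h7b, chr15:81784797-81785248 stayed between 51.4 and 68.8 and passed neither test.

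**Figure D3:**
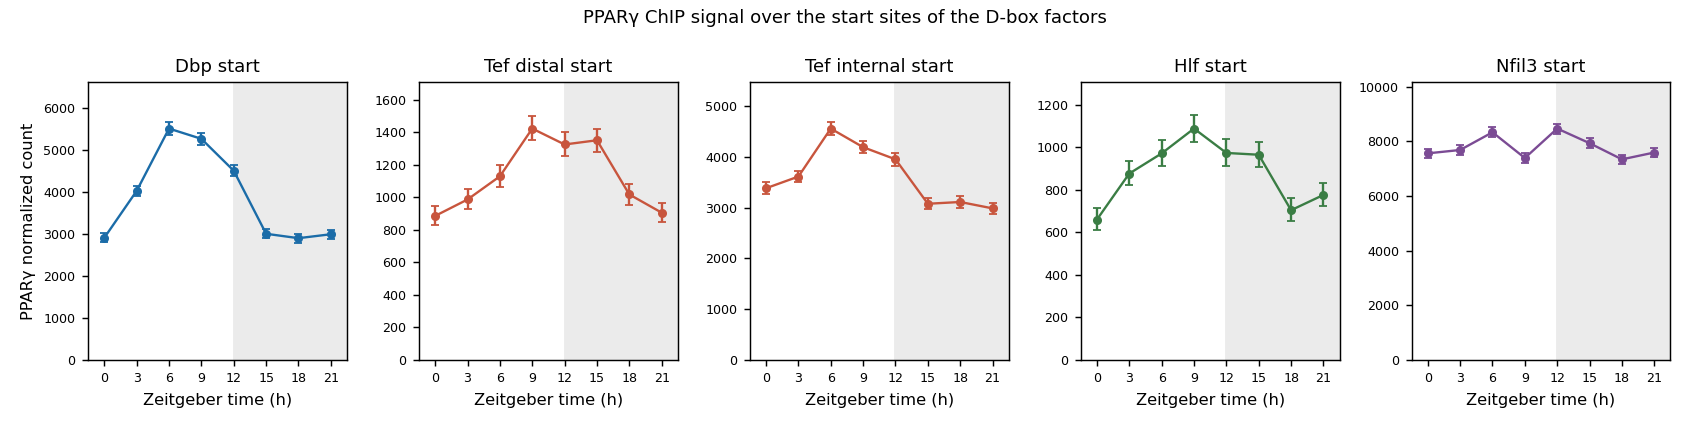
Normalized PPARγ count over the start sites of Dbp, Tef (distal and internal), Hlf and Nfil3 against Zeitgeber time in hours, 1 library per point, with 95% Wilson intervals of counting error as bars and the dark phase shaded. Each vertical axis starts at 0 and has its own scale. Dbp ran from 2900 to 5515 and Nfil3 from 7342 to 8470.

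At Hlf, peaks were spread along the introns and most were high and low in the same libraries. Of 16 peaks, 1 was centred in intron 1, 9 in intron 2, 3 in intron 3 and 3 were intergenic. The start-site peak, chr11:90388059-90391270, had normalized counts of 660, 877, 972, 1089, 974, 966, 704 and 776. ZT9 was highest and ZT0 lowest, the maximum was at ZT9.66 (95% interval 8.04 to 11.3 h), and both tests called it (adjusted P = 0.00595 in exact JTK-cycle and 0.0141 in the edgeR cosine). Its JTK-cycle call was lost in 3 of 4 other scalings (adjusted P = 0.0826 with library totals and with cyclic loess, 0.212 with upper-quartile factors), while the cosine call held in all 4. By mean count the strongest was chr11:90354545-90358706 in intron 2, with 2543, 2812, 3041, 3263, 2816, 2524, 2103 and 2389. It was also highest at ZT9 and lowest at ZT18 (edgeR cosine adjusted P = 0.006). Under cyclic loess this cosine call was lost (adjusted P = 0.0578), while its JTK-cycle call held in all 4 other scalings.

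Nearest to the start in intron 2, chr11:90381334-90385422 reached its fitted maximum earliest of the called members, at ZT5.5 (95% interval 4.27 to 6.73 h). Its values were 2664, 2893, 3188, 2930, 2492, 2157, 2241 and 2281, with the highest at ZT6. The largest amplitudes of the window were 0.53 ± 0.07 for chr11:90369063-90370395 and 0.47 ± 0.09 for chr11:90368002-90368873, which lie next to each other in intron 2. The former had values of 431, 702, 882, 790, 778, 565, 437 and 470. The latter had 109, 164, 210, 213, 188, 150, 113 and 130. In the former ZT6 was 2.04 times ZT0, and in the latter ZT9 was 1.96 times ZT0, the lowest library of both (edgeR cosine adjusted P = 0.00132 and 0.0102).

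Further called peaks of intron 2 were of the same order. In chr11:90363152-90365342 the values were 1643, 1820, 2133, 1793, 1811, 1498, 1332 and 1544. They were 703, 1006, 1102, 985, 994, 827, 641 and 683 in chr11:90371094-90373202, and 346, 359, 477, 395, 475, 343, 278 and 280 in chr11:90379815-90381046. All 3 were highest at ZT6 and lowest at ZT18, and chr11:90371094-90373202 was called by the edgeR cosine alone. In intron 3, chr11:90340346-90341738 had 1083, 1103, 1456, 1339, 1280, 1009, 936 and 1102. Next to it, chr11:90341984-90344295 had 1043, 1211, 1364, 1365, 1433, 1166, 945 and 1068. The third, chr11:90344737-90346120, had 418, 480, 509, 520, 394, 422, 287 and 353 and was called by the edgeR cosine alone (adjusted P = 0.0231). These 3 were lowest at ZT18. The first and second were called by both tests. The first lost both calls with library totals and with cyclic loess. The second lost its JTK-cycle call in all other scalings, and the third its cosine call with library totals.

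Upstream of Hlf, chr11:90416813-90418515 had values of 547, 573, 733, 751, 690, 630, 533 and 535, with a maximum at ZT9.16 (95% interval 7.43 to 10.9 h) and calls by both tests. It held 3 E-boxes and a D-box. Of all peaks of like length, 24.8% hold an E-box and 10.1% a D-box. Past the 3′ end, chr11:90329965-90330858 and chr11:90317116-90317843 had ratios of 1.33 and 1.27 and passed neither test, as did 2 weak peaks of intron 2, with ratios of 1.84 and 1.57. The former pair did not share the shape of the start-site peak, with Pearson's r of -0.52 and -0.54 to it on log2 values over 8 libraries.

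At Nfil3, the gene was bound strongly and nearly evenly over the day. The peak chr13:52971386-52983202 is 11.82 kb long, covers the start and intron 1, and ranked 62 among all peaks by mean count. Its normalized counts were 7562, 7685, 8334, 7391, 8470, 7934, 7342 and 7593. The highest library, ZT12, was 1.15 times the lowest, ZT18, with Wilson intervals of 8289 to 8655 and 7173 to 7516. The amplitude, 0.05 ± 0.04, was above that of 7.94% of all peaks, and neither exact JTK-cycle (adjusted P = 1) nor the edgeR cosine (adjusted P = 0.582) called it. With cyclic loess the edgeR cosine called it (adjusted P = 0.0196) with an amplitude of 0.16 and its maximum at ZT17.2, so its shape depends on the scaling. It held 5 E-boxes, 4 D-boxes and 4 DR1 matches, and of the 33 peaks of like length 81.8% hold an E-box, 24.2% a D-box and 81.8% a DR1.

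Upstream of Nfil3, 2 of 4 intergenic peaks were called by both tests. In chr13:53007531-53010131 the values were 1510, 1892, 1919, 2184, 1976, 1692, 1445 and 1482, highest at ZT9 and with a maximum at ZT8.4 (95% interval 7.1 to 9.7 h). In chr13:53003094-53004051 they were 138, 171, 152, 248, 336, 272, 197 and 172. The value at ZT12 of the latter was 2.44 times that at ZT0, the widest ratio of all 39 members, with a maximum at ZT12.8 (95% interval 11.4 to 14.2 h) and an amplitude of 0.55 ± 0.09 (edgeR cosine adjusted P = 0.00573). The remaining peaks, chr13:52985049-52986502 and chr13:53001588-53002643, were also highest at ZT12, at 1.73 and 1.92 times their lowest value, and passed neither test.

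**Figure D4:**
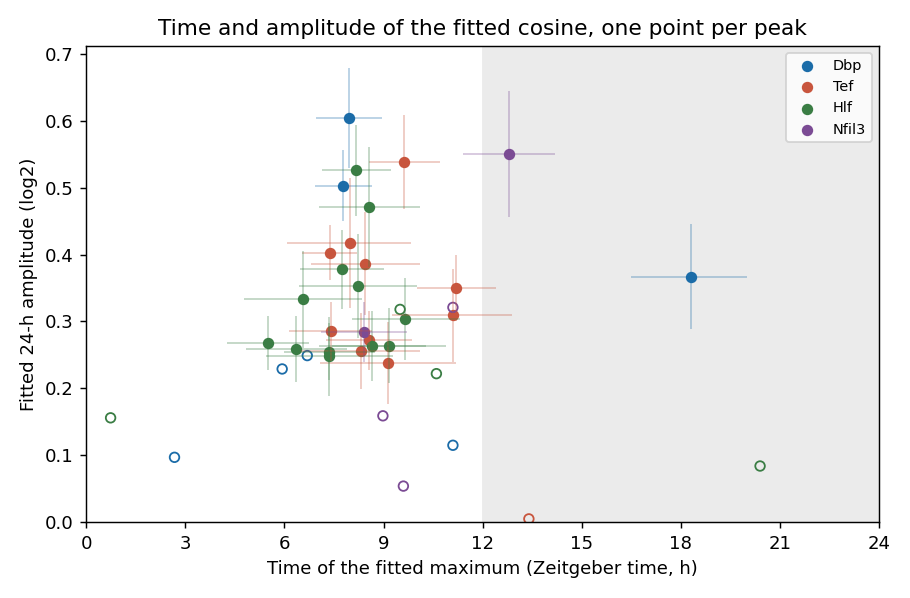
Time of the fitted 24-h maximum in hours of Zeitgeber time against the fitted amplitude on the log2 scale, 1 point per peak, coloured by window, with filled points for peaks called by the cosine. Bars are the 95% interval of the time and the SE of the amplitude, and the dark phase is shaded. Called peaks gather between ZT5.5 and ZT11.2, with 1 Nfil3 peak at ZT12.8 and 1 Dbp window peak at ZT18.3.

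Levels of the 5 start-site peaks were compared per kb of peak. The mean normalized count per kb was highest for the internal Tef start, 938 (776 to 1180 over the 8 libraries), followed by Dbp, 781 (582 to 1110), Nfil3, 659 (621 to 717), the distal Tef start, 303 (238 to 383), and Hlf, 273 (206 to 339). Neighbours in this order overlapped in range over the libraries, apart from Nfil3 and the distal Tef start, and the internal Tef start did not overlap with Nfil3. The pattern in time was compared by the ratio of reads within a library, in which the scaling cancels, over 10 pairs of start-site peaks. No pair passed exact JTK-cycle after Benjamini-Hochberg adjustment over the 10 (lowest adjusted P = 0.13), and 2 pairs, Dbp over each Tef start, had an exact JTK P of 0.026 before it. For Dbp over Nfil3 the ratio ran from 0.379 at ZT15 to 0.713 at ZT9, and for Dbp over the distal Tef start from 2.22 at ZT15 to 4.88 at ZT6. Pearson's r on log2 values over 8 libraries was 0.96 for Dbp with the internal Tef start, 0.87 for the distal Tef start with Hlf, and 0.36 to 0.48 for Nfil3 with the other 4. These points share libraries and scaling, and no P value is given.

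Taken as sums over each window, normalized counts were highest at ZT6 for Dbp (9123, lowest 5682 at ZT15) and Hlf (17028, lowest 11394 at ZT18), at ZT9 for Tef (28696, lowest 18379 at ZT18) and at ZT12 for Nfil3 (12614, lowest 10105 at ZT18). The ratio of highest to lowest was 1.61, 1.49, 1.56 and 1.25 in this order. Sums follow the strongest peaks, so that of Nfil3 is mostly its start-site peak.

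In sequence, members held more E-boxes than the average peak, and their peaks are longer. An E-box was present in 15 of 39 members (38.5%) and 16.9% of all 66059 peaks on chromosomes, at 0.283 and 0.179 per kb. D-boxes were present in 4 members (10.3%) and 7.03% of peaks, at 0.0871 and 0.0663 per kb. DR1 matches with up to 2 mismatches were found in 15 members (38.5%) and 23.6% of peaks, at 0.229 and 0.258 per kb, and AGGTCA half-sites at 0.871 and 0.886 per kb. Both strands were searched, and a DR1 contains its half-sites. In the 250 bases before the start, each Tef start had 1 E-box, centred 124 and 135 bases upstream, while Dbp, Hlf and Nfil3 had none, and 6.02% of 32851 RefSeq promoters hold one. The absence of these letters in a window says nothing about the factor.

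Among other clock genes the times were mixed. Peaks nearest to the activators Arntl, Clock and Npas2 were called by the cosine in 13 of 16 cases (81.2%, with 13.4% of all peaks). All 13 had a maximum from ZT18 to ZT24, a span that held 15.1% of all called peaks. They were 10 of 12 Arntl peaks and 3 of 3 Npas2 peaks. Neither the strongest Arntl peak (edgeR cosine adjusted P = 0.173) nor the 1 Clock peak (edgeR cosine adjusted P = 0.148) was called. Npas2, an E-box activator like CLOCK, had its strongest peak at 2461 at ZT0 and 765 at ZT15 (edgeR cosine adjusted P = 0.000154). For the repressors (Per, Cry, Ciart and Bhlhe genes) 14 of 27 peaks (51.9%) were called, 8 with a maximum from ZT6 to before ZT12. For the Nr1d and Ror genes it was 14 of 45 (31.1%), 3 in that span and 8 from ZT12 to before ZT18. The latter span held 28.3% of all called peaks. Nr1d1, which encodes REV-ERBα and represses Nfil3 and Arntl, ranged from 4485 at ZT15 to 11300 at ZT6 in its strongest peak (edgeR cosine adjusted P = 1.74e-05). The cosine called 4 of 5 Nr1d1 peaks and 0 of 5 Nr1d2 peaks. Of 28 peaks nearest to known D-box genes (Por, Alas1, Nr1i3, Gys2, Usp2 and Lonrf3), 9 were called by the cosine (32.1%). Of these 9, 7 had their maximum in the same span as most members, which held 25.2% of all called peaks. All 9 lie at Por, the electron donor of P450 enzymes (6 of 11), or Usp2, a deubiquitinase (3 of 5). The cosine called 13.4% of all peaks, and 7 of 17 (41.2%) nearest to Ucp1, Cidea, Fabp4 and Adipoq.

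The genes whose strongest-matching peak within 10 kb of a start was most like each start-site peak, by Pearson's r over 8 libraries among 6636 genes, were Tob1 (0.985), Adig (0.984) and Spatc1 (0.983) for Dbp. For the internal Tef start they were Slc5a6 (0.974), Ddit3 (0.973) and Midn (0.97). For Hlf they were 1700027J07Rik (0.987), 4930581F22Rik (0.97) and Lncpint (0.961), and for Nfil3 Atp5b (0.968), Acacb (0.943) and Fbxo31 (0.917). Values above 0.9 were reached by 158 genes for Dbp, 138 for Tef, 34 for Hlf and 7 for Nfil3, so the leading genes stand close to many others in the former 2. This is a description of 8 points that share libraries. Pearson's r compares the shape over time and not the size of the change, so a peak with a flatter course can rank high.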

How the data were processed

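PPARγ ChIP-sequencing libraries of 8 time points were analysed, and the ZT12 input was not analysed here. Per the labels and methods, the authors mapped reads to mm10 with BWA 0.7.17, called peaks with MACS2 2.1.2, kept those significant in most libraries and used HTSeq 1.99.2 to count reads in each. The deposited values are raw counts, not normalized. Counts were scaled with TMM (edgeR 4.0.16, R 4.3.3). A 24-h cosine was tested by glmQLFit and glmQLFTest over all 66066 peaks (common dispersion 0.0116, 5 residual degrees of freedom). The spread of this test is what the cosine leaves unexplained, drawn towards that of the other peaks. Its median total degrees of freedom were 14.7, this prior included. JTK-cycle was written anew in Python 3.11.15 (periods 21 and 24 h, 15 combinations), and its rule for tied template points was adopted after comparison with the paper's supplementary table. It called 7686 of 66066 peaks, fewer than the paper reports. Both tests were tried on simulated data with planted cosines larger than those fitted to the members, so recovery at the members' amplitudes was not tested. Start sites are of curated RefSeq transcripts (GRCm38). Wilson intervals cover counting error only. Alternatives were other scalings (limma 3.58.1, DESeq2 1.42.0), filters, thresholds, nearest-start membership, DESeq2's likelihood ratio test and leaving out each library. Members, lists and the rule for named peaks (all 8 values for start-site, strongest and called peaks, ranges for others) were chosen with earlier results of these data known. The ratio test between start-site peaks was added after values were seen. Sequence windows are from the reference genome.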

Additional observations from a re-analysis of the deposited data

How the results depend on the processing

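The main counts were 21 members called by JTK-cycle and 27 by the edgeR cosine. Cyclic loess lowered the JTK-cycle count to 13, with 11.0% of all peaks called. A threshold of 0.01 lowered the counts to 5 and 13, with 4.66% and 3.4% of all peaks called. Leaving out 1 library gave 11 (without ZT0) to 19 members for JTK-cycle, with 12 without ZT15. For the cosine it gave 12 (without ZT18) to 27. Without ZT0 the JTK-cycle share of all peaks rose from 11.6% to 13.1% while the member count fell. Without ZT15 that share was 11.2%. Without ZT18 the cosine share of all peaks fell from 13.4% to 4.64%. The cause of these shifts was not tested. All other scalings, filters and a 24-h period stayed within 1.5 times. So did DESeq2's likelihood ratio test (27 members, with 15.4% of 64785 peaks). Membership by nearest start site also did (20 and 22 of 36, with 11.6% and 13.4% of all peaks). Of the cosine calls, 22 of 27 held under all 4 scalings and 12 under each left-out library, and of the JTK-cycle calls 11 and 4 of 21. By the edgeR cosine, the Hlf start-site peak had an adjusted P of 0.0616 without ZT9 and the Fam83e peak of the Dbp window 0.124 without ZT18. No paired analysis was possible because each time point is 1 library. Weak peaks, with down to 52 reads per library, carry larger counting error.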
